A study of Mus musculus with 9 samples.

Results

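Thyrotropin-releasing hormone (Trh), the surface glycoprotein Thy1, the TRH receptors Trhr and Trhr2, and the TRH-degrading ectoenzyme Trhde were followed through the hippocampal neuronal transcriptome of Tg4-42 mice. These 5 genes were taken by name from the 48709 genes counted, and all 5 had counts in all 9 libraries and passed the filter on low counts. Trh and Thy1 were chosen by their counts in this comparison, being higher in Tg4-42 than in WT mice, and because the transgene may carry parts of both, so their difference from WT is described here without a test. Trhde and the 2 receptors were added by function. Trhr, Trhr2 and Trhde belong to the same peptide system but are no part of the construct.

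RNA was sequenced from NeuN-stained, sorted neuronal nuclei of frozen hippocampi, and each library gave single-end reads of 50 bases. The 3 groups, with 3 libraries each, were WT mice of the C57BL/6J strain on tap water, homozygous Tg4-42 mice on tap water, and homozygous Tg4-42 mice that drank caffeine. Tg4-42 mice are a single transgenic line on the C57BL/6J background, in which the murine Thy1 promoter drives human Aβ4-42 joined to the signal peptide of murine TRH. Caffeine was given at 300 mg/l in the drinking water for 4 months, from 2 months of age, so that all mice were 6 months old at the end. A treatment label exists for the caffeine libraries alone. That the other libraries came from mice on tap water rests on their genotype label and the study's methods. This label reads Wildtype or APP Transgenic, whereas the study describes Tg4-42 mice as expressing Aβ4-42 without overexpressing human APP. No library of caffeine-treated WT mice was analysed here, so a difference between the caffeine and WT groups holds genotype and treatment together. The methods give 3 animals per group for sequencing while the labels mention 6 for nuclei isolation, and whether a library holds the nuclei of 1 mouse or of several was not resolved by these sources.

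TRH is a tripeptide that is cut from a long precursor protein. In the hypothalamus it drives the release of thyrotropin from the pituitary, and elsewhere in the brain it acts as a neuromodulator through receptors coupled to Gq proteins. The peptide is cleared outside the cell by a membrane-bound metallopeptidase, the product of Trhde. Thy1 is unrelated to TRH: it is an immunoglobulin-fold protein held in the membrane by a GPI anchor, abundant on mature neurons, and its promoter is widely used to express transgenes in the postnatal brain.

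Trh (ENSMUSG00000005892) lies on the minus strand of chromosome 6 of mm10, from 92242061 to 92244650, and has 3 exons with 1384 exon bases. Its coding sequence of 771 bases, or 256 codons, opens with the signal peptide, the element that the Tg4-42 construct is stated to contain. The first 75 coding bases are shown because reads from the construct could be counted on Trh only where the 2 share sequence, and the start codon is in capitals. These 25 codons make up 9.73% of the coding sequence and 5.42% of the annotated transcript.

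Trh start of coding sequence: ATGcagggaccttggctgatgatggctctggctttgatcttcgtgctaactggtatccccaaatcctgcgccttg

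The hormone itself is encoded further along, in 5 copies of the codons for Gln-His-Pro-Gly, from which the amidated tripeptide is made. The 5 copies are shown because they are the part of Trh that yields the peptide, and they lie outside the bases printed above. The 12 bases of the Gln-His-Pro-Gly codons are in capitals, and in all 5 copies they are flanked on both sides by 2 codons for lysine or arginine, the basic residues at which prohormone convertases cut.

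Trh repeat 1: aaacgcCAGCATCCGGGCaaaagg
Trh repeat 2: aaacgaCAGCACCCTGGCcgacgt
Trh repeat 3: aagcggCAGCACCCTGGCaggcga
Trh repeat 4: aagaggCAGCATCCAGGCcggagg
Trh repeat 5: aaacgtCAGCATCCTGGCaaaagg

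Repeat 1 starts at coding base 223 and repeat 5 ends at coding base 624. The 12-base cores take 4 different forms, since repeats 2 and 3 have the same core, and any pair of the 24-base stretches differs at 2 to 8 bases. The deposited values are counts per gene, so they do not show whether the reads counted on Trh came from its first codons, from the repeats or from elsewhere on its exons.

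Thy1 (ENSMUSG00000032011) lies on the plus strand of chromosome 9, from 44043384 to 44048579, with 2995 exon bases in 5 blocks and 6 annotated transcripts. Trhr (ENSMUSG00000038760), a receptor with 7 membrane spans, lies on the plus strand of chromosome 15, from 44196135 to 44235912, with 4000 exon bases. Trhr2 (ENSMUSG00000039079), which encodes a second TRH receptor in rodents, lies on the minus strand of chromosome 8, from 122356967 to 122360746, with 1340 exon bases. Trhde (ENSMUSG00000050663) spans 114398823 to 114802307 on the minus strand of chromosome 10 and has 8065 exon bases in 19 blocks. None of the 50-base windows of the exons of Trh, Thy1, Trhr and Trhr2 recurred in another annotated transcript of the mouse, a count of 0 for each gene. For Trhde, 490 of 8013 windows (6.12%) recurred in the antisense gene Gm15723, which shares 538 exon bases with it. Gm15723 had 84 counts over all 9 libraries, and a second antisense gene at the locus, 4930473D10Rik, had 69. Trhr2 lies within the span of Gm20388 on the other strand, which had 0 counts and shares 0 exon bases with it. Whether reads were counted by strand is not given in the sources used here, so reads of Trhde and of Gm15723 in the shared stretch cannot be told apart.

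Counts are given below as CPM, read counts put on a common library size (the usual scale named CPM) after TMM, a factor that corrects library totals for differences in composition. The libraries held 9342945 to 16376922 counts, at which 3 counts, taken as the floor of detection, equal 0.183 to 0.321 CPM. This floor covers counting error only. In every group, replicates 1 and 2 were sequenced on lane 6 and replicate 3 on lane 7, so replicate 3 and lane 7 cannot be told apart. The labelled neuronal origin was checked against markers: the 4 pan-neuronal markers, which include Rbfox3 (the gene of NeuN), summed to between 5061 and 7601 CPM per library, against 229 to 463 CPM for the 6 oligodendrocyte markers, 276 to 415 CPM for the 6 astrocyte markers and 37.7 to 70.3 CPM for the 6 microglial markers. The 5 endothelial markers summed to at most 3.04 CPM. Glial markers were therefore low against these abundant pan-neuronal markers but not at 0. The oligodendrocyte and astrocyte sums were of the size of that of the 6 CA3 and CA2 neuron markers, at 241 to 307 CPM. Of the markers of neighbouring regions, the 7 hypothalamic ones, which include Avp, Oxt and Hcrt, summed to 1.83 to 3.57 CPM. Of these 7, 5 were too low to be tested and 2 had no count in any WT library.

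Trh, the hormone precursor, was low in WT neurons and an order of magnitude higher in all Tg4-42 libraries. The 3 WT libraries held 56, 33 and 28 counts of Trh, which correspond to 4.39, 2.08 and 1.81 CPM. The vehicle-treated Tg4-42 libraries held 598, 927 and 639 counts, or 64.7, 59.5 and 51.3 CPM. The caffeine-treated Tg4-42 libraries held 653, 835 and 777 counts, or 48.0, 57.7 and 59.7 CPM. The lowest Tg4-42 library was thus far above the highest WT library, and the 2 Tg4-42 groups overlapped.

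The mean was 2.76 ± 1.42 CPM (SD, n = 3) in WT mice, 58.5 ± 6.76 CPM (SD, n = 3) in vehicle-treated and 55.2 ± 6.28 CPM (SD, n = 3) after caffeine. The ratio of the means to WT was 21.2 with vehicle and 20.0 with caffeine, and the fitted log2 fold changes were 4.43 and 4.35. These values chose the gene and carry no test. WT replicate 1 had the highest Trh of the WT libraries and also the highest sum of 6 thalamic markers, at 184 CPM against 44.8 and 78.9 CPM in the other WT libraries and 35.8 to 79.1 CPM in the Tg4-42 libraries. The part of this in the WT level of Trh was not tested. Without WT replicate 1 the log2 fold change was 4.90 with vehicle and 4.82 with caffeine.

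Thy1 was abundant in WT neurons and several times higher in Tg4-42 mice. The WT libraries held 1047, 1384 and 1373 counts, or 82.1, 87.4 and 88.8 CPM. The vehicle-treated Tg4-42 libraries held 5906, 8046 and 5737 counts, or 639, 516 and 461 CPM. With caffeine they held 6922, 8264 and 8716 counts, or 509, 571 and 670.1 CPM. WT mice formed a narrow group well below all 6 Tg4-42 libraries, and the 2 Tg4-42 groups overlapped.

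Mean Thy1 was 86.1 ± 3.50 CPM (SD, n = 3) in WT, 538.7 ± 91.3 CPM (SD, n = 3) in vehicle-treated and 583 ± 81.3 CPM (SD, n = 3) in caffeine-treated Tg4-42 mice, which gave ratios to WT of 6.26 and 6.78 and log2 fold changes of 2.64 and 2.76. Among all 17361 genes tested, ordered by log2 fold change to WT, Trh was at position 5 with vehicle and at position 5 with caffeine, and Thy1 at positions 11 and 8. For reference, 0.0979% of the tested genes were called between the vehicle groups and 0.415% between caffeine-treated Tg4-42 mice and WT, at an adjusted p under 0.05 in edgeR's quasi-likelihood test. Groups without overlap were found for 18.8% of the tested genes between caffeine-treated Tg4-42 mice and WT. Nothing is read from these shares for Trh and Thy1, which were listed for this difference.

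**Figure D1:**
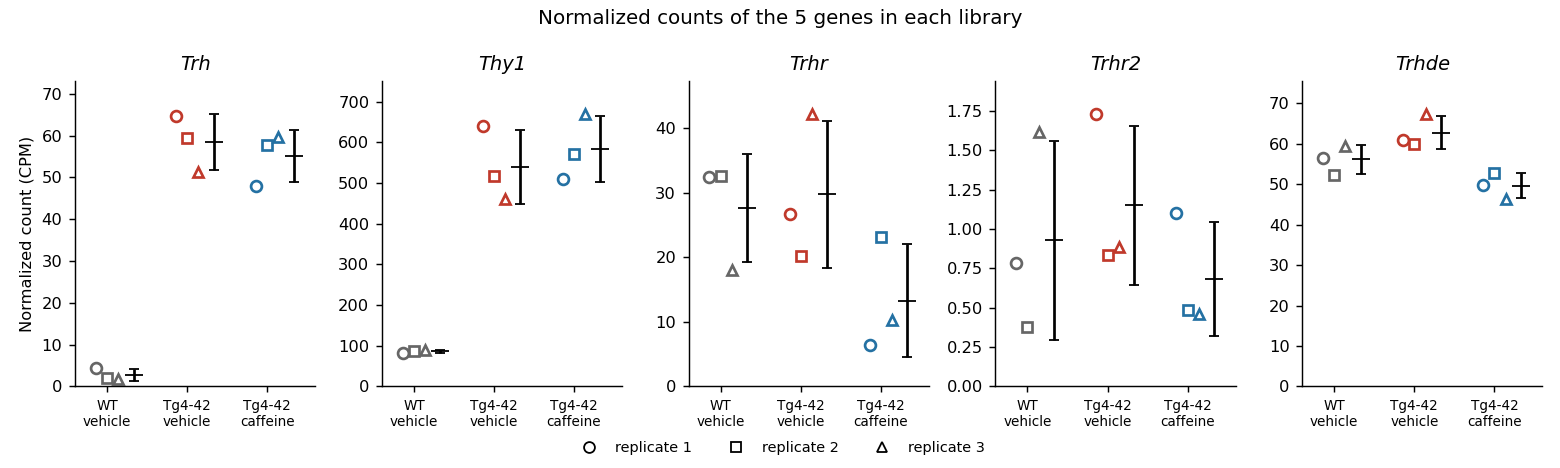
Normalized count (CPM, linear axis from 0) of Trh, Thy1, Trhr, Trhr2 and Trhde in each of the 9 libraries, by group, where symbols mark the replicate and bars the mean ± SD of 3 libraries. Trh and Thy1 separate WT from all 6 Tg4-42 libraries, Trhr and Trhr2 overlap between all groups, and the 3 caffeine values of Trhde (46.4 to 52.7 CPM) lie below the 3 vehicle values of Tg4-42 mice (60.0 to 67.5 CPM).

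Levels can be compared between genes only per length. On the scale of CPM per kilobase of annotated exon, WT mice had 2.0 for Trh and 28.8 for Thy1, and vehicle-treated Tg4-42 mice had 42.3 and 179.9. In WT mice 31.7% of the 17308 genes ranked lay below Trh, and in vehicle-treated Tg4-42 mice 94.2%. Thy1 was already above 90.0% of the genes in WT mice, and above 99.4% in vehicle-treated Tg4-42 mice. The receptors and the enzyme were lower: Trhr had 6.91 and 7.43, Trhde 6.96 and 7.79, and Trhr2 0.692 and 0.858 CPM per kilobase in WT and vehicle-treated Tg4-42 mice. The order by length in WT mice was thus Thy1, then Trhde and Trhr side by side, then Trh, then Trhr2. In Tg4-42 mice Trh moved to the second place. These levels per length depend on the transcript that is taken: with the longest transcript in place of all exons, Thy1 had 49.6 and Trhde 9.83 CPM per kilobase in WT mice. For a construct that carries only a stretch of a gene, a level per length of the whole gene has no direct meaning.

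If the mean WT level is subtracted, 94.2 to 95.7% of the Trh signal and 81.3 to 87.1% of the Thy1 signal in the Tg4-42 libraries lay above it. In vehicle-treated Tg4-42 mice the part above WT was 55.7 ± 6.76 CPM (SD, n = 3) for Trh and 452.6 ± 91.3 CPM (SD, n = 3) for Thy1. With caffeine it was 52.4 ± 6.28 CPM (SD, n = 3) and 497.3 ± 81.3 CPM (SD, n = 3). The ratio of Thy1 to Trh in this part was 8.93, 7.58 and 7.72 in the vehicle libraries and 9.34, 8.83 and 10.3 in the caffeine libraries. The groups overlapped by 1 pair of neighbouring values, and the ratio did not differ past the threshold (two-sided exact permutation test, p = 0.2, where 3 against 3 cannot give less than 0.1). In WT mice, without subtraction, the ratio of Thy1 to Trh was 36.6 ± 15.9 (SD, n = 3), with values from 18.7 to 49.0. That the ratio was lower in the part above WT follows from the larger ratio to WT of Trh than of Thy1. Both genes were chosen by that difference, so nothing is read from it.

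Over the 6 Tg4-42 libraries, Trh and Thy1 tended to be high in the same libraries. In both treatment groups, the order of the 3 libraries by Trh was also their order by Thy1. Pearson's r of the log2 CPM was 0.74 (exact permutation p = 0.0972, n = 6) and Spearman's rho was 0.83 (exact permutation p = 0.0583, n = 6), and with Benjamini-Hochberg adjustment over these 2 tests the p was 0.0972 for both. Without the 2 libraries farthest from the median of Thy1, r was 0.75 (exact permutation p = 0.25, n = 4). The relation did not pass the threshold, and the libraries share the factor that scales both genes. The WT libraries were left out because they lie apart from the others.

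**Figure D2:**
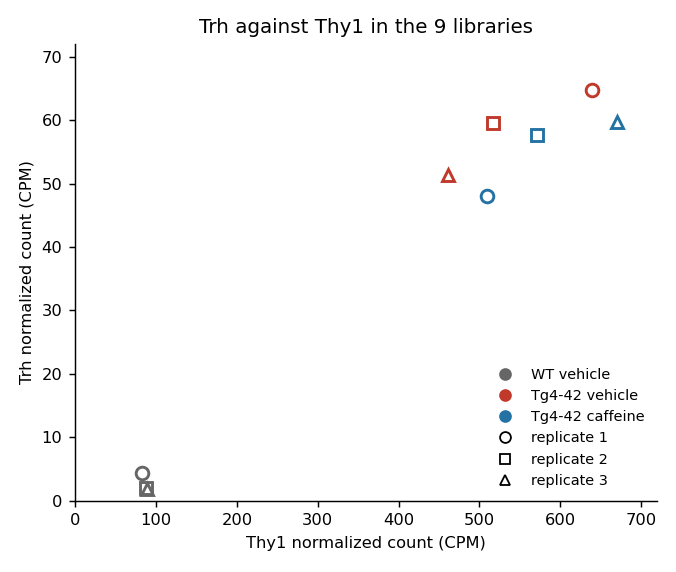
Normalized count of Trh against that of Thy1 (CPM, linear axes from 0) in the 9 libraries, with colours for the groups and symbols for the replicates. The 3 WT libraries sit at 1.81 to 4.39 CPM of Trh and the 6 Tg4-42 libraries at 48.0 to 64.7 CPM, with vehicle and caffeine intermixed.

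The genes that surround Trh and Thy1 in the genome did not follow them. The 3 nearest tested genes on each side of Trh were Rbsn, Mrps25, Nr2c2, Prickle2, Adamts9 and 9530026P05Rik, and their log2 fold changes between the vehicle groups ranged from -0.37 for 9530026P05Rik to 0.06 for Adamts9. Rbsn, at a distance of 27136 bases from Trh, had -0.04. Around Thy1, the nearest tested gene Usp2 starts 18442 bases away and had a log2 fold change of -0.11. The other 5 were Rnf26 (0.02), Mcam (-0.54), Nectin1 (0.38), Pou2f3 (0.95) and Tmem136 (-0.02), of which Pou2f3 had a mean of 0.487 CPM in WT mice. None of these 12 neighbours was called in any of the 3 comparisons, where edgeR called 0.0979 to 0.881% of all tested genes. Between the vehicle groups the adjusted p was 1.00 for each (edgeR quasi-likelihood test). At such shares, the absence of calls among 12 genes tells little about these loci. That the neighbours did not follow Trh and Thy1 is read from the fold changes above alone.

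The genes whose profile over the 9 libraries was most like that of Trh were Supt16 (Pearson's r of log2 CPM 0.99), Gm3375 (0.99), Thy1 (0.98), Gm8865 (0.98) and Cdh24 (0.97). For Thy1 they were Cdh24, Gm8865, Gm3375, Trh and 1110002E22Rik, with r from 0.98 to 0.99. All of these share the step between the WT and Tg4-42 libraries. Supt16, a subunit of the histone chaperone FACT, had a mean of 27.3 CPM in WT and 76.6 CPM in vehicle-treated Tg4-42 mice, and Cdh24, a cadherin, 1.52 and 6.93 CPM. Gm8865 had a mean of 0.0 CPM in WT and 9.68 CPM in vehicle-treated Tg4-42 mice. Supt16, Gm8865 and Cdh24 all lie on chromosome 14, whereas Trh is on chromosome 6 and Thy1 on chromosome 9. These values are a description over libraries that also share their scaling.

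Caffeine did not detectably alter Trh or Thy1. Relative to vehicle, caffeine gave Trh a log2 fold change of -0.08 with a 95% interval from -0.50 to 0.33 (adjusted p = 0.862, edgeR quasi-likelihood test). It was 0.12 for Thy1, with an interval from -0.19 to 0.42 (adjusted p = 0.734, same test). The exact permutation p was 0.6 for each of the 2 genes (n = 3 against 3). Changes within these intervals remain possible at this replication. The sign for Trh turned when caffeine replicate 1, its lowest caffeine library, was left out, at 0.01. In this comparison 0.881% of all tested genes were called, and 0 of the 5 members were. DESeq2 called 5.47% of the 13992 genes to which it gave an adjusted p, and 0 of the 4 members among them, since Trhr2 received none. Limma-voom called 3.56% of all tested genes and 0 of the 5 members. At an unadjusted p under 0.05 in edgeR there were 2 of the 5 members (Trhr and Trhde), against 17.0% of all tested genes.

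The receptor Trhr, through which TRH raises intracellular calcium, varied widely within each group. The WT libraries held 413, 516 and 278 counts, or 32.4, 32.6 and 18.0 CPM. The vehicle-treated Tg4-42 libraries held 247, 315 and 526 counts, or 26.7, 20.2 and 42.2 CPM, and the caffeine-treated ones 87, 335 and 134 counts, or 6.40, 23.2 and 10.3 CPM. Caffeine libraries 1 and 3 were the lowest of all 9, but caffeine library 2 lay above 1 vehicle library and 1 WT library, so all 3 groups overlapped.

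Mean Trhr was 27.7 ± 8.39 CPM (SD, n = 3) in WT, 29.7 ± 11.3 CPM (SD, n = 3) in vehicle-treated and 13.3 ± 8.77 CPM (SD, n = 3) in caffeine-treated Tg4-42 mice. Between the vehicle groups the log2 fold change was 0.10, with an interval from -0.96 to 1.16 (adjusted p = 1.00, edgeR quasi-likelihood test). With caffeine it was -1.15 against vehicle-treated Tg4-42 mice, with an interval from -2.25 to -0.06 (unadjusted p = 0.0410, adjusted p = 0.274, same test), and -1.05 against WT mice (adjusted p = 0.342). The difference did not pass the threshold. Without the filter on low counts the adjusted p from the same test was 2.82e-07 against vehicle-treated Tg4-42 mice and 3.89e-06 against WT mice. In the other 9 ways of fitting it stayed above 0.05 in both, and the exact permutation p was 0.2 for caffeine against vehicle (n = 3 against 3).

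Markers of hippocampal cell types also differed between the caffeine and vehicle libraries of Tg4-42 mice. The 6 interneuron markers, which include Gad1, Sst and Pvalb, summed to 944, 828 and 1299 CPM in the vehicle-treated Tg4-42 libraries and to 612, 772 and 655 CPM in the caffeine-treated ones, and to 919, 832 and 911 CPM in the WT libraries. The highest sum and the highest Trhr fell in the same library, vehicle-treated Tg4-42 replicate 3, and the lowest of both in caffeine replicate 1. The WT libraries did not follow this order, since WT replicate 2 had the highest Trhr of the 3 and the lowest sum. The caffeine and vehicle groups did not overlap in this sum. Taken singly, 23.0% of all tested genes did not overlap between these groups either. All 6 markers had a negative log2 fold change with caffeine (median -0.46, against -0.01 over all tested genes). By edgeR, DESeq2 or limma-voom 0 of the 6 were called, against 0.881%, 5.47% and 3.56% of the genes of each tool. An unadjusted p under 0.05 was found for 5, against 17.0% of all tested genes. The 6 dentate granule cell markers went the other way, from 489, 654 and 263 CPM to 702, 718 and 932 CPM. Of these, 1 was called, Plk5 (log2 fold change 1.52, adjusted p = 0.0385, edgeR quasi-likelihood test), against 0.881% of all tested genes. The call of Plk5 was lost with lane as a covariate and without vehicle-treated Tg4-42 replicate 1 or 3 or caffeine replicate 2 or 3, where the adjusted p lay between 0.0523 and 0.222. The 5 CA1 markers summed to 487, 582 and 564 CPM with vehicle and 438, 474 and 438 CPM with caffeine. These sums did not overlap, to be set against the same 23.0% of single genes. Between these groups 4 of them were negative and 1 was positive. The positive marker and 2 of the negative ones had an unadjusted p under 0.05 in edgeR, against 17.0% of all tested genes. Against WT mice 1 of the 5, Wfs1, was called (log2 fold change -0.77, adjusted p = 0.0408, edgeR quasi-likelihood test), against 0.415% of all tested genes. This call was lost with lane as a covariate and without WT replicate 2 or 3 or caffeine replicate 2 or 3, where the adjusted p lay between 0.0607 and 0.341. The 6 microglial markers summed to 46.8, 70.3 and 64.2 CPM with vehicle and 46.5, 37.7 and 38.1 CPM with caffeine. These sums lay apart only narrowly, at 46.8 against 46.5 CPM, where 23.0% of single genes did not overlap. Of these markers, 0 were called by edgeR and 2 had an unadjusted p under 0.05, against 0.881% and 17.0% of all tested genes. DESeq2 and limma-voom each called 1, against 5.47% and 3.56%. In the astrocyte and oligodendrocyte lists 5 of 6 markers were negative with caffeine, with medians of -0.76 and -0.58, but their sums overlapped. The astrocyte sums were 415, 296 and 401 CPM with vehicle and 349, 291 and 276 CPM with caffeine. The oligodendrocyte sums were 332, 434 and 463 CPM with vehicle and 334, 263 and 229 CPM with caffeine. Each list had 3 markers at an unadjusted p under 0.05 and 0 called by edgeR, against 17.0% and 0.881% of all tested genes. Of the 6 CA3 and CA2 markers, 5 were positive (median 0.17) and 0 were called by edgeR, against 0.881% of all tested genes. The 4 pan-neuronal markers summed to 7149, 5968 and 7601 CPM with vehicle and 6334, 5462 and 5061 CPM with caffeine, with overlap. Of these 4, 3 were negative and 1 positive (median -0.16). An unadjusted p under 0.05 was found for 1 in each direction, against 17.0% of all tested genes, and edgeR called 0. The part of these markers in the level of Trhr was not tested. In bulk RNA of nuclei, fewer cells of a type and less RNA per cell cannot be told apart.

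The genes most like Trhr over the 9 libraries, looked up after its values had been seen, were Sema3d (r = 0.97), Cnr1 (0.97), Lgals1 (0.95), Clrn1 (0.95) and Ddc (0.95). Cnr1, the cannabinoid receptor of many inhibitory terminals, had a mean of 399.6 CPM in WT, 412.9 CPM in vehicle-treated and 289.0 CPM in caffeine-treated Tg4-42 mice.

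The second receptor, Trhr2, was near the floor in every library. The WT libraries held 10, 6 and 25 counts, the vehicle-treated Tg4-42 libraries 16, 13 and 11 counts and the caffeine-treated ones 15, 7 and 6 counts, which is a range of 0.379 to 1.73 CPM. The groups overlapped, and the highest counts fell in WT replicate 3. The log2 fold change was 0.26 (interval -0.90 to 1.42) between the vehicle groups and -0.70 (interval -1.91 to 0.51) between caffeine and vehicle, with adjusted p of 1.00 and 0.572 (edgeR quasi-likelihood test). With so few counts the intervals were wide, and a change of the size they span was not detectable at this depth.

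Trhde, the ectopeptidase that inactivates TRH, varied little between replicates. The WT libraries held 721, 829 and 921 counts, or 56.6, 52.4 and 59.5 CPM. The vehicle-treated Tg4-42 libraries held 563, 935 and 840 counts, or 60.9, 60.0 and 67.5 CPM, and the caffeine-treated ones 677, 763 and 604 counts, or 49.8, 52.7 and 46.4 CPM. All 3 vehicle-treated Tg4-42 libraries lay above all WT and all caffeine-treated libraries, and the caffeine and WT groups overlapped by the WT value of 52.4 CPM.

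Mean Trhde was 56.2 ± 3.61 CPM (SD, n = 3) in WT, 62.8 ± 4.06 CPM (SD, n = 3) in vehicle-treated and 49.7 ± 3.16 CPM (SD, n = 3) in caffeine-treated Tg4-42 mice. Between the vehicle groups the log2 fold change was 0.16, with an interval from -0.09 to 0.41 (unadjusted p = 0.185, adjusted p = 1.00, edgeR quasi-likelihood test). Between caffeine and vehicle it was -0.34, with an interval from -0.59 to -0.09 (unadjusted p = 0.0106, adjusted p = 0.158, same test). Against WT mice, caffeine gave -0.18, with an interval from -0.42 to 0.07 (adjusted p = 0.487).

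Trhde therefore did not pass the threshold in any comparison. The vehicle groups did not overlap for Trhde, which was also so for 6.73% of all tested genes. Trh and Thy1 were chosen for their difference between these groups and are not set against this share. Of the 5 members, Trhde alone was without overlap between caffeine and vehicle, where 23.0% of all tested genes were, and the exact permutation p of 0.1 is the smallest that 3 against 3 allows. The value between caffeine and vehicle stayed negative in all 16 other fits, from -0.38 to -0.27, and the adjusted p was above 0.05 in each.

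The genes most like Trhde were Cdh13 (r = 0.99), Steap2 (0.97), Pla2g5 (0.96), Ptprf (0.96) and Tmem63c (0.96). Cdh13, a cadherin without a cytoplasmic domain, had a mean of 152 CPM in WT, 189 CPM in vehicle-treated and 113 CPM in caffeine-treated Tg4-42 mice, the same order of groups as for Trhde. Trhde and Trhr had r = 0.68 over the 9 libraries, while Trhde and Trh had -0.02.

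**Figure D3:**
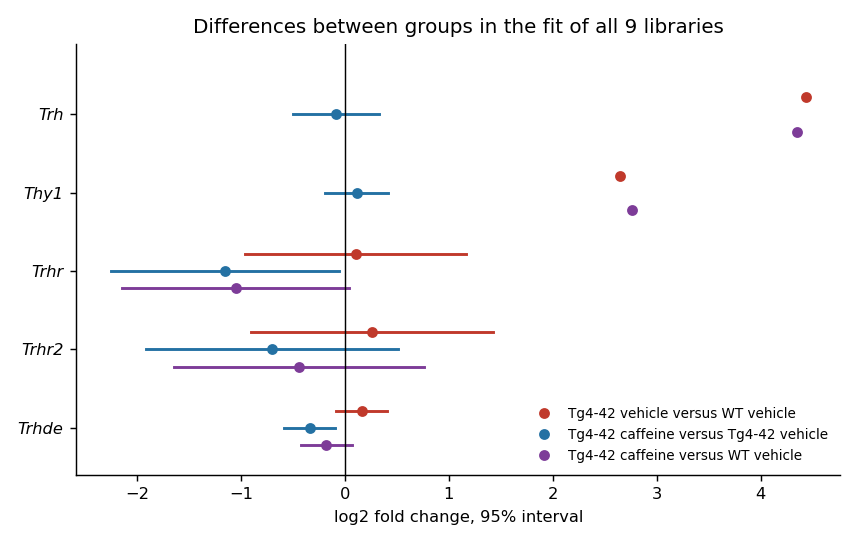
Log2 fold changes of the 5 genes in the 3 comparisons, as points from the fit of all 9 libraries, with lines for the 95% interval where the difference was tested. Trh and Thy1 are drawn without intervals against WT because they were chosen for that difference. The caffeine and vehicle points of Trh (-0.08) and Thy1 (0.12) lie close to 0, and for Trhr and Trhde the interval of caffeine against vehicle ends just below 0.

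The precursor of TRH is cut by prohormone convertases, trimmed by carboxypeptidase E, closed at its N-terminal glutamine by glutaminyl cyclase and amidated by Pam. Of 8 genes listed for these steps, 0 were called between the vehicle groups, against 0.0979% of all tested genes. An unadjusted p under 0.05 was found for 0, against 475 of the 17361 tested genes. DESeq2 and limma-voom called 0 of the 8, and 26 and 16 genes in all. The log2 fold changes were 4 positive and 4 negative, with a median of -0.01, against 0.00 over all tested genes. Between caffeine and vehicle, 7 of the 8 were negative, with a median of -0.36 against -0.01 over all tested genes, and 1 was called, against 0.881% of all tested genes.

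The gene called was Qpct, the secreted glutaminyl cyclase, which forms the pyroglutamate at the start of TRH. Its levels were 40.2, 46.9 and 41.6 CPM in WT, 40.6, 52.0 and 49.8 CPM in vehicle-treated and 25.8, 32.8 and 21.0 CPM in caffeine-treated Tg4-42 mice. All 3 caffeine libraries lay below the other 6. Groups without overlap were also found for 23.0% of all tested genes between caffeine and vehicle and for 18.8% between caffeine and WT. Qpct fell by 0.84 on the log2 scale with caffeine (interval -1.18 to -0.50, adjusted p = 0.0399, edgeR quasi-likelihood test), and was -0.69 against WT mice (adjusted p = 0.0726). The call was lost when lane was a covariate (adjusted p = 0.0554) and when any vehicle-treated Tg4-42 library or caffeine replicate 3 was left out, where the adjusted p lay between 0.0553 and 0.278. With DESeq2 1 gene of the list of 8 was called and with limma-voom 2, against 5.47% and 3.56% of the genes each tool tested. In edgeR 4 of the 8 had an unadjusted p under 0.05, all negative, against 17.0% of all tested genes.

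The most abundant genes of the same list did not pass the test. Between caffeine and vehicle, Cpe, carboxypeptidase E, had a log2 fold change of -0.32 (1009 ± 127 against 1255 ± 232 CPM, SD, n = 3, adjusted p = 0.376, edgeR). Scg5, the chaperone of prohormone convertase 2, had -0.40 and Pcsk2, that convertase, -0.50, with adjusted p of 0.197 and 0.159 (edgeR). Their means were 438 and 402 CPM with caffeine and 577 and 569 CPM with vehicle. The differences in neuronal and glial marker lists given above were found in the same libraries, and their part in these values was not tested.

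Apart from Trhde, TRH can be cleaved in the cytosol by Pgpep1 and Prep. With caffeine Pgpep1 had a log2 fold change of 0.07 and Prep of -0.04. Neither was called in any comparison, where edgeR called 0.0979 to 0.881% of all tested genes. Trhde belongs to the M1 family of zinc aminopeptidases, of which 8 of 10 other listed genes were tested. Anpep and Lvrn had at most 1 and 2 counts in any library. None of the 8 was called in any of the 3 comparisons, a count of 0 with edgeR, DESeq2 and limma-voom alike. In edgeR these comparisons called 0.0979 to 0.881% of all tested genes. Between caffeine and vehicle DESeq2 called 5.47% and limma-voom 3.56%. At such shares a count of 0 among 8 genes tells little about the family. Of the 8, 1 had an unadjusted p under 0.05 between caffeine and vehicle, against 17.0% of all tested genes, and there their median was 0.02. The most abundant, 2010111I01Rik (also named Aopep), Npepps, Lta4h and Rnpep, had log2 fold changes of -0.17, 0.08, 0.01 and 0.24 there.

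TRH receptors act through Gq proteins, phospholipase C-beta and protein kinase C. Of 14 genes listed for this route and its desensitization, all 14 were tested. By edgeR 0 were called in any comparison, against 0.0979 to 0.881% of all tested genes. Between caffeine and vehicle, 3 with a positive and 2 with a negative log2 fold change had an unadjusted p under 0.05, against 17.0% of all tested genes, and DESeq2 and limma-voom each called 2, against 5.47% and 3.56%. Between the vehicle groups, 10 of them were negative (median -0.05), and between caffeine and vehicle, 10 were positive (median 0.12, against -0.01 over all genes). Among the most abundant were Rgs4, a brake on Gq signalling (-0.65, adjusted p = 0.233 between caffeine and vehicle, edgeR), Prkcb (0.03) and the calcium channel Itpr1 (0.03). The arrestin gene Arrb2, named after its value was seen, came nearest to the threshold, with 66.9 ± 12.2 CPM with caffeine against 42.3 ± 4.19 CPM with vehicle (SD, n = 3) and an adjusted p of 0.0600 (edgeR).

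Thyroid hormone lies downstream of TRH in the endocrine axis. Of 20 listed genes of its transport, activation, receptors and targets, 17 were tested. By edgeR 0 were called in any comparison, against 0.0979 to 0.881% of all tested genes. Tshr, Cga and Dio1 did not pass the filter, with at most 13, 2 and 1 counts in a library. Between caffeine and vehicle, 7 were positive and 10 negative, with a median of -0.21. An unadjusted p under 0.05 was found for 4 in each direction, against 17.0% of all tested genes, and DESeq2 and limma-voom each called 1, against 5.47% and 3.56%. The most abundant were Ncor1, a corepressor of the thyroid hormone receptor (0.44, adjusted p = 0.0955, edgeR), Nrgn, a known target of thyroid hormone in forebrain neurons (0.58, adjusted p = 0.157), Thra, the main receptor of the brain (0.34, adjusted p = 0.175), and Crym, a binding protein of the hormone (-0.04, adjusted p = 0.953). The receptor gene Thrb, named after its value was seen, had -0.44 (adjusted p = 0.142).

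Genes tied to Thy1 were taken in 2 lists. The first held 8 genes for its integrin and syndecan partners and for Src family signalling. By edgeR 0 of them were called in any comparison, against 0.0979 to 0.881% of all tested genes. Their median was 0.03 between the vehicle groups and 0.17 between caffeine and vehicle. The most abundant were Fyn (0.44, adjusted p = 0.145 between caffeine and vehicle, edgeR), Itgav (-0.14) and Src (0.52, adjusted p = 0.0922). Of the 8 genes, 2 had an unadjusted p under 0.05 between caffeine and vehicle, against 17.0% of all tested genes, and DESeq2 called 1 and limma-voom 0, against 5.47% and 3.56%. Of 11 other GPI-anchored immunoglobulin-fold genes of neurons, 0 were called by edgeR in any comparison, against the same shares of all tested genes. Between the vehicle groups 9 of them were positive with a median of 0.06. In edgeR 1 of the 11 had an unadjusted p under 0.05 there, against 475 of the 17361 tested genes. With caffeine 8 of the 11 were negative, with a median of -0.36, where Thy1 had 0.12. Of these, 6 had an unadjusted p under 0.05, against 17.0% of all tested genes, and DESeq2 called 4 and limma-voom 3, against 5.47% and 3.56%. The most abundant of them, Opcml, Cntn1, Lsamp and Ntm, had log2 fold changes of 0.05, -0.47, 0.09 and -0.56 there, with adjusted p between 0.0904 and 0.886 (edgeR).

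**Figure D4:**
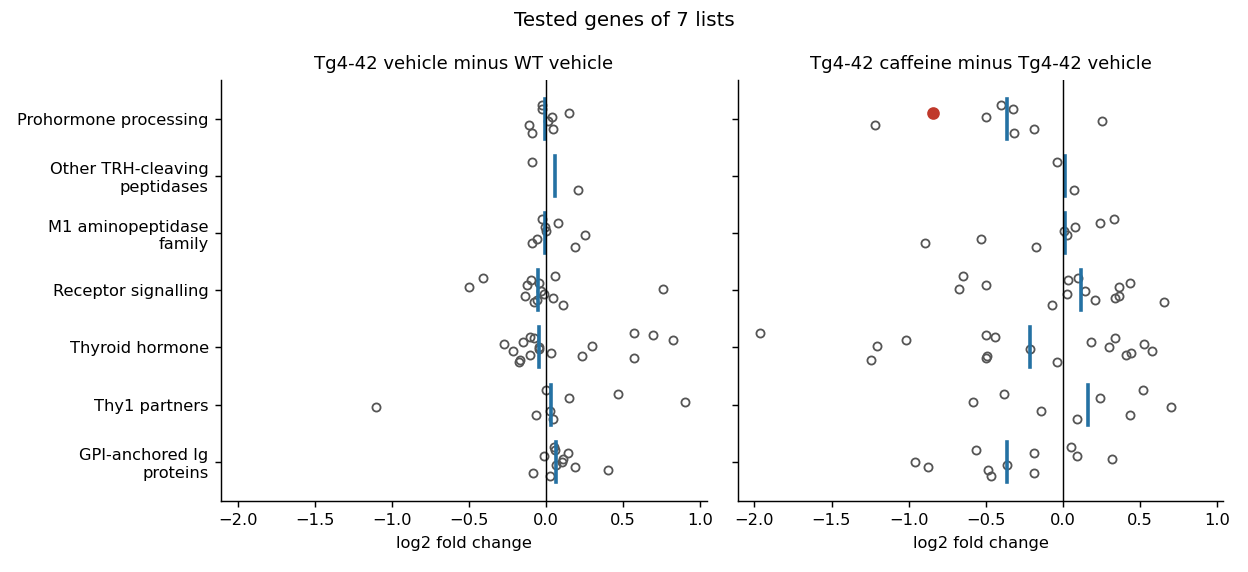
Log2 fold changes of the tested genes of 7 lists, between vehicle-treated Tg4-42 and WT mice (left) and between caffeine- and vehicle-treated Tg4-42 mice (right), where blue bars mark the median of a list and a filled red point a gene with an adjusted p under 0.05. Points gather around 0 on the left, and on the right they spread more widely, with Qpct (-0.84) as the only called gene of the 7 lists.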

How the data were processed

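The authors isolated NeuN-sorted nuclei, prepared libraries with a low-input kit, aligned the reads to mm10 with STAR and counted them on gene exons with featureCounts. They deposited whole counts per gene, not normalized, for 9 libraries. Reads were not analysed here.

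Gene symbols, positions and sequences were taken from GENCODE M21 (GRCm38), which names 48349 of the 48709 genes. The 17361 genes that passed edgeR's filter (minimum count 10, minimum total 15) were fitted in R 4.3.3 with edgeR 4.0.16 (TMM, robust quasi-likelihood, all 9 libraries), with Benjamini-Hochberg adjustment over all of them. SD and permutation tests used CPM, with a pseudocount of 0.5 on the log2 scale. Fitting was tested on counts simulated from the means and dispersions of these libraries. The simulation held no effect of lane or of a single library, so it does not bear on such effects. Libraries held 9342945 to 16376922 counts, and intervals cover the spread between these libraries, which may be technical where they are not separate animals. Log CPM of replicates correlated at 0.978 to 0.985, and their counts differed by more than sampling noise in all 9 pairs.

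The members, the gene lists and the tests were chosen with earlier results of these data known. Named genes are the members, list genes past the threshold or else the most abundant of a list, the 3 nearest tested genes on each side of Trh and Thy1, genes that overlap a member, and the 5 genes most alike in profile. Genes named outside this rule are marked as such. The values of 1 gene that the rule names are not reported here. The alternatives were DESeq2 1.42.0, RLE factors, library totals, other filters, only the 2 groups compared, a replicate block, lane as a covariate, limma-voom (limma 3.58.1) and leaving out each library. The quasi-likelihood method of edgeR version 4 was added after the data were seen.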

Additional observations from a re-analysis of the deposited data

How the results depend on the processing

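The caffeine comparison within Tg4-42 mice gave 153 called genes, of which 24.2% were higher. The count was 766 (37.6% higher) with DESeq2, 618 with limma-voom, 987 (36.2% higher) without a filter on low counts, 78 (39.7% higher) with library totals alone and 9 with lane as a covariate. Leaving out 1 library gave 0 to 341 calls, with 0 without vehicle replicate 3 or caffeine replicate 3, 3 without vehicle replicate 1, 58 without caffeine replicate 2 and 341 without caffeine replicate 1. Between caffeine-treated Tg4-42 and WT mice, 72 genes were called (34.7% higher), 568 with DESeq2, 860 without a filter, 42 with lane as a covariate, and 16 to 287 with 1 library left out (16 and 287 without caffeine replicates 3 and 1, and 42, 23 and 28 without WT replicates 1, 2 and 3). With library totals alone 53.3% of the calls were higher. Between the vehicle groups, 17 genes were called, 26 with DESeq2, 74 without a filter, and 14 to 18 with 1 library left out. The causes were not tested. With 1 library left out, Trh between caffeine and vehicle ranged from -0.16 to 0.0060, Trhr between the vehicle groups from -0.25 to 0.32, and Trhr2 from -0.12 to 0.95 between the vehicle groups and from -0.96 to 0.26 between caffeine and WT, so the direction of these 4 differences was not settled. Trhr was the only member whose call depended on the fit, as given above. Pearson's r between Trh and Thy1 ranged from 0.74 to 0.92 over 5 alternatives, and none passed the threshold. Spearman's rho did with library totals (exact permutation p = 0.0333) and with deviations from the group means (exact permutation within groups, p = 0.0278). The replicate number in the library names, entered as a replicate block, gave 16, 187 and 82 calls for genotype, caffeine against vehicle and caffeine against WT, and changed no call of a member. Deviations of same-numbered libraries correlated at 0.138 to 0.188 between the vehicle groups and at -0.171 to 0.181 in the other pairs of groups, and no source states a pairing. Counts were lowest for Trhr2, and for Trh in WT mice, and all groups had 3 libraries.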
